A study of Homo sapiens with 9 samples.

Results

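Keratins are the intermediate filament proteins of epithelial cells, and 7 of their genes are described here: KRT7, KRT8, KRT10, KRT18, KRT19, KRT80 and KRT81. They were chosen as a list of symbols, and all 7 were found among the 26625 genes of the deposited count tables, which also hold 47 other keratin genes and 7 keratin pseudogenes. The study compared oligo(dT) primers for reverse transcription from the poly(A) tail, and gene counts were analysed for 7 libraries of total RNA from cultured, wild-type human cells. HEK293T, a transformed line from human embryonic kidney grown in high-glucose DMEM with serum, gave 6 libraries, 1 for each primer. The unanchored primers T12, T18 and T30 end in 12, 18 or 30 T, and the anchored primers T18V, T18VN and T18VNN carry 1, 2 or 3 further bases after 18 T, of which V is any base but T. The series' primer list calls the primer with 2 anchor bases T12VN, although its sequence there has 18 T. A549, a line from a lung carcinoma that the labels call epithelial, was grown in F-12K medium with serum and gave 1 library, made with T12. The cell lines thus differed in medium too, so line and medium cannot be told apart. A second T12 library of each line had no gene counts among the files used here, so no primer or line had a replicate. In bulk RNA fewer expressing cells and less RNA per cell cannot be told apart.

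A keratin filament is built from pairs of 1 acidic type I and 1 basic type II chain. KRT8 (type II) and KRT18 (type I) form the pair found in simple, single-layered epithelia such as lung alveoli and kidney tubules, and KRT7 (type II) and KRT19 (type I) are added in many glandular and ductal epithelia. Chains without a partner are unstable, and the filaments are tied to desmosomes and hemidesmosomes by linker proteins such as desmoplakin and plectin. The other members lie outside that simple set in their textbook roles: KRT10 (type I) is the keratin of differentiating epidermis, KRT81 (type II) is a hair keratin, and KRT80 (type II) is a more widely found epithelial chain. The name simple epithelial keratins therefore fits KRT7, KRT8, KRT18 and KRT19 in the strict sense, and the members are called the 7 keratins below.

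The genes lie in the keratin clusters of chromosomes 12 (type II, with KRT18 at its edge) and 17 (type I), here in hg19 coordinates. KRT7 spans chr12:52626954-52642709 on the plus strand, KRT18 chr12:53342843-53346685 on the plus strand, and KRT8 chr12:53290971-53343650 on the minus strand in its longest entries. KRT80 is at chr12:52562780-52585784 and KRT81 at chr12:52679697-52685299, both on the minus strand. KRT10 is at chr17:38974369-38978863 and KRT19 at chr17:39679869-39684641, both on the minus strand. The longest KRT8 entries overlap KRT18 by 808 bp on the opposite strand, and KRT81 lies wholly within the span of KRT86, another hair keratin gene on the opposite strand. The counting is not stated to use strand, so reads in these overlaps cannot be assigned with certainty. KRT86 itself had 4 reads in A549 and 0 in every HEK293T library, beside 967 reads for KRT81 in A549.

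The anchored primers anneal where the message meets its poly(A) tail, while the unanchored ones can anneal anywhere along the tail. The last 30 bases of 6 annotated transcripts (GENCODE release 29, GRCh38) are shown as the stretch before the tail. Capitals mark the polyadenylation signal AATAAA, searched on the transcript strand together with its variant ATTAAA.
KRT7: gcagcctcattctgaggcctgagtgatcca
KRT19: cctgccAATAAAaatttatggtccaaggga
KRT8: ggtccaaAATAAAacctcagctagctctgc
KRT18: agcaggaggccAATAAAaagttcagagttc
KRT10: ttcAATAAActttcttactgatgcaaacta
KRT81: atctgtgtttcAATAAAttaatgtagccaa
AATAAA was present in 5 of these 6 ends, all but that of KRT7, and in 30.6% of the 83129 protein-coding transcripts of the annotation, many of which are not complete at that end. KRT8 and KRT18 end in C and the other 4 in A, as 44.6% of all protein-coding transcripts do. Oligo(dT) can also prime at runs of A inside a message. None of the 7 transcripts held a run of 6 or more A (the longest had 5), which is also true of 54.2% of protein-coding transcripts.

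All 7 keratins were higher in A549 than in HEK293T with the same T12 primer, and in A549 above all 6 HEK293T libraries. KRT7, KRT8, KRT18 and KRT81 were the abundant ones in A549, while KRT7, KRT19 and KRT80 had no read in any HEK293T library. At 1 library per line there is no test. A gene was counted as higher when its log2 ratio of CPM + 1 (reads scaled to a common total of reads on genes, pseudocount 1) reached 2-fold and the higher library held at least 20 reads. By this rule 60.2% of 10145 genes differed between the lines, 31.0% were higher in A549, and 26.4% were both higher and above all 6 HEK293T libraries, against 7 of 7 keratins for each. The median log2 ratio of the 7 was 6.43, beside 0.02 over all genes. However, KRT7, KRT19, KRT80 and KRT81 had 0 reads in HEK293T T12, and KRT8 had 12. These keratins reached the minimum of 20 reads through A549 alone, so they could not have come out lower there. The 7 were also chosen with earlier results of these data known, so their count and median are descriptions only.

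KRT7, a keratin of glandular and ductal epithelia, had 2052 reads in A549 and 0 in each of the HEK293T T12, T18, T30, T18V, T18VN and T18VNN libraries. Its A549 level was 1369.7 CPM. Taking 3 reads per library as the floor (0.919 CPM in HEK293T T12), this is at least 1491-fold higher in A549. KRT7 had the 7th highest log2 ratio of the 10145 genes. Only 1.69% of those genes, 171 in number, had reads in A549 at this minimum and 0 reads in all 6 HEK293T libraries, and KRT7, KRT19 and KRT80 were among them.

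KRT19, the short type I keratin often paired with KRT7 or KRT8, was the scarcest of the 7 in A549, with 27 reads (18.02 CPM) against 0 in all 6 HEK293T libraries. The difference was at least 19.6-fold against T12. KRT19 thus stood near the minimum of 20 reads, far below its simple-epithelial companions.

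KRT8, the type II partner of KRT18 in simple epithelia, had 1539 reads in A549 beside 12 in the HEK293T T12 library. Its levels were 1027 CPM in A549 and, in HEK293T, 3.67, 1.73 and 4.51 CPM for T12, T18 and T30 and 7.47, 1.79 and 4.45 CPM for T18V, T18VN and T18VNN. A549 was 279.6-fold above HEK293T T12 (95% exact interval 159.6 to 542), and 137.5-fold above T18V, the highest HEK293T library (89.6 to 223). The groups did not come near each other, although the HEK293T values rest on only 8 to 21 reads each.

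KRT18 had 1942 reads in A549 and 38 to 140 in the HEK293T libraries. Its levels were 1296 CPM in A549 and, in HEK293T, 14.1, 26.9 and 17.6 CPM for T12, T18 and T30 and 16.4, 8.48 and 11.96 CPM for T18V, T18VN and T18VNN. The A549 level was 92.0-fold that of T12 (68.7 to 126) and 48.2-fold that of T18, the highest (40.5 to 57.6). KRT18 was the best-covered of the 7 in HEK293T, and its ratio to A549 was smaller than that of KRT8 against T12.

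**Figure D1:**
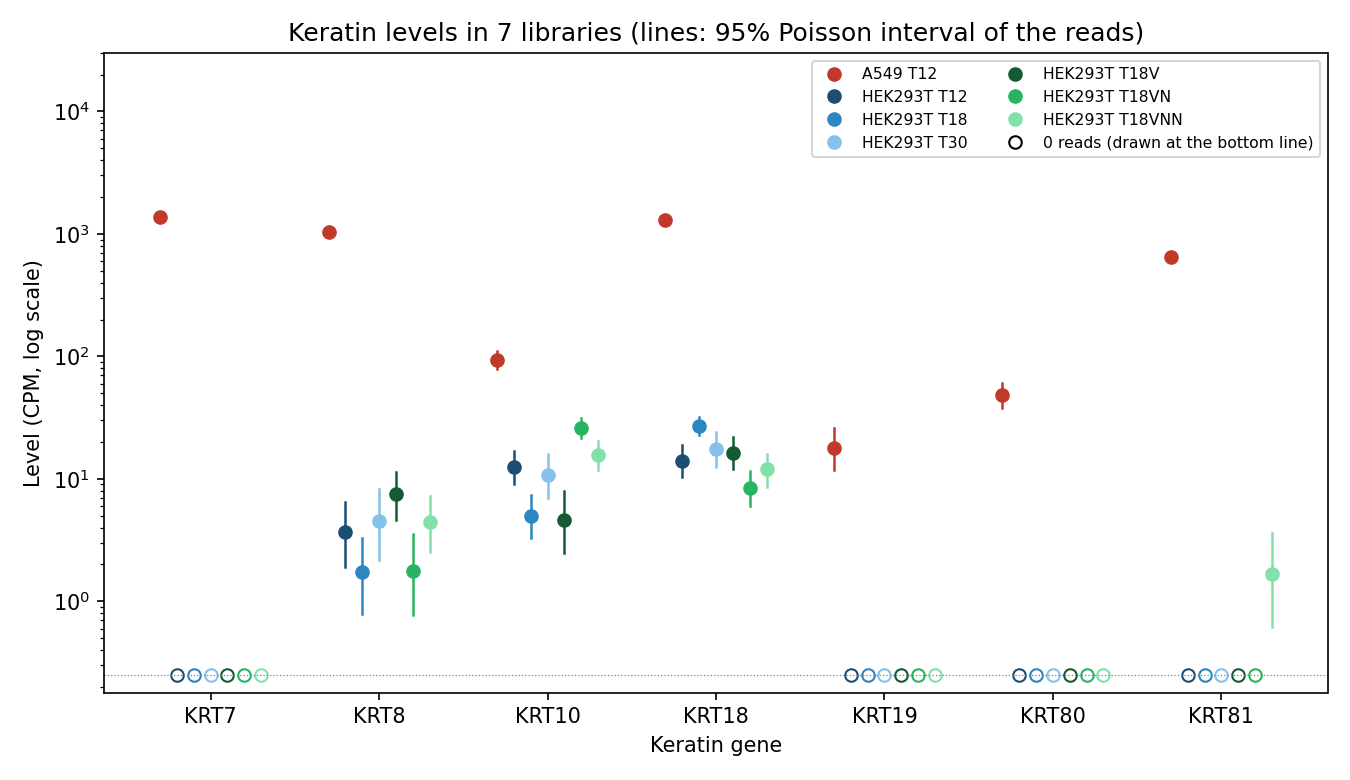
CPM of each of the 7 keratins (log axis) in the 6 HEK293T libraries and the A549 T12 library, 1 point per library, with 95% exact Poisson lines; open circles at the bottom line are 0 reads. A549 lies above every HEK293T point for each gene, by 3.58-fold for KRT10, and KRT7, KRT19 and KRT80 have no HEK293T reads.

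KRT81, a hair keratin, had 967 reads (645 CPM) in A549. In HEK293T it had 6 reads (1.67 CPM) in the T18VNN library and 0 in the other 5. A549 was at least 703-fold above T12 and 387-fold above T18VNN (177 to 1057). In T18VNN KRT7, which had more reads than KRT81 in A549, was at 0. The source of the 6 KRT81 reads there was not tested. KRT81 had the 15th highest log2 ratio of all genes, between KRT7 and KRT8 (38th). Its near copy KRT86 shares a stretch of 605 bases with it, and 38.4% of the 50-base windows of the KRT81 transcript occur in KRT86, so that reads there could be split between them. No window of the last 500 bases of KRT81 occurs in another gene.

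KRT80 had 72 reads (48.1 CPM) in A549 and 0 in every HEK293T library, at least 52.3-fold higher than in T12. KRT10 is the epidermal type I keratin. Its 140 reads in A549 gave 93.4 CPM, and its HEK293T levels were 12.6, 5.00 and 10.8 CPM for T12, T18 and T30 and 4.62, 26.1 and 15.6 CPM for T18V, T18VN and T18VNN. A549 was 7.44-fold above T12 (5.22 to 10.8) and 3.58-fold above T18VN, the highest (2.78 to 4.61). KRT10 ranked 1193rd of 10145 genes, well behind KRT18 (104th), KRT80 (208th) and KRT19 (537th). Of all genes, 2.00% were at least 50-fold higher in A549 on the log2(CPM + 1) scale.

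**Figure D2:**
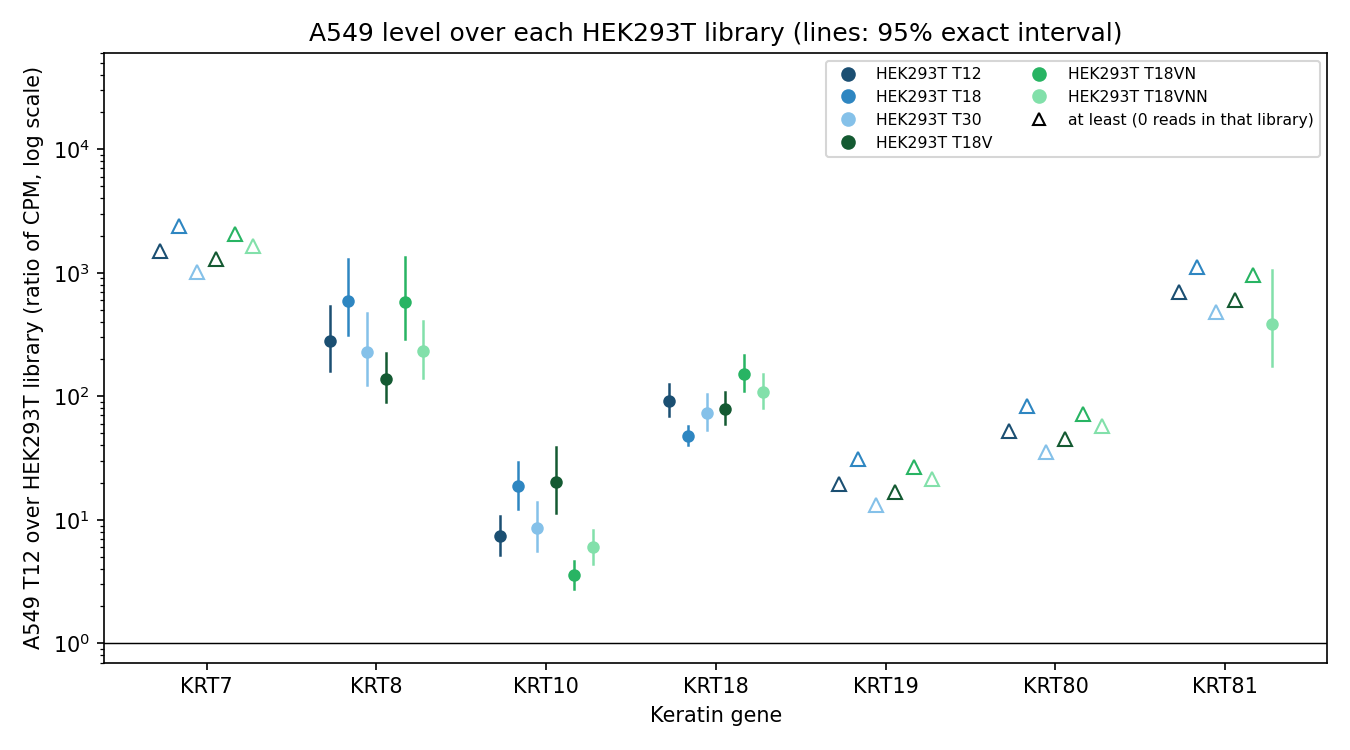
A549 T12 level over the HEK293T T12 level and over each other HEK293T library for the 7 keratins, on a log axis, with 95% exact intervals where both libraries have reads and lower bounds from the 3-read floor otherwise. KRT10 has the smallest ratio against T12 (7.44), triangles are lower bounds, and every ratio shown is above 1.

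The 7 keratins together took 0.450% of the reads on genes in A549 (95% Wilson interval 0.439 to 0.461) and 0.00285% to 0.00364% in the 6 HEK293T libraries. Levels were compared between genes per length, by the deposited FPKM (reads scaled by transcript length and library total) within 1 library. This presumes that reads scale with length, which reads primed at the tail need not do, and the orders and intervals below hold only then. In A549 the order was KRT18 at 119 FPKM, KRT7 at 108, KRT8 at 73.1, KRT81 at 45.5, KRT10 at 5.88, KRT80 at 1.66 and KRT19 at 1.65. The first 4 ranked 71st, 81st, 127th and 209th of the 12056 genes with at least 3 reads in that library. Of the neighbours in that order, KRT80 and KRT19 did not differ beyond counting error (ratio 1.007, 95% exact interval 0.639 to 1.63), while KRT18 exceeded KRT7 by 1.10-fold (1.03 to 1.17). By reads alone KRT7 came before KRT18, and KRT80 had 72 reads beside 27 for KRT19. KRT81, the lowest of the first 4, was 7.74-fold KRT10 per length (6.48 to 9.31).

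In HEK293T T12 KRT18 had the highest level of the 7 at 1.66 FPKM, before KRT10 at 1.013 and KRT8 at 0.335, ranking 4535th, 5869th and 8703rd of 11943 genes. KRT18 was 1.64-fold KRT10 there (1.05 to 2.56) and KRT10 was 3.02-fold KRT8 (1.56 to 6.31). The order changed with the primer. In T18VN KRT10 led, at 2.11-fold KRT18 (1.45 to 3.13), and in T18VNN the ratio of KRT18 to KRT10 was 1.12 with an interval spanning 1 (0.735 to 1.70). In T18V KRT8 came second, but its ratio to KRT10, 1.83, had an interval of 0.874 to 3.97.

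The type I share of the summed FPKM was 35.6% in A549, where the type II chains KRT7, KRT8 and KRT81 were each below KRT18 but above it in sum. It ran from 77.1% in T18V to 95.8% in T18 among the HEK293T libraries, in which KRT10 and KRT18 made up most of the sum. For KRT18 and KRT8 alone, KRT18 was 1.63-fold KRT8 per length in A549 (95% exact interval 1.52 to 1.74). In HEK293T the same ratio was 4.94 for T12, 20.1 for T18 (10.3 to 44.8), 5.03 for T30, 2.82 for T18V (1.65 to 4.98), 6.12 for T18VN and 3.46 for T18VNN. A549 lay below all 6, and the interval of the nearest library, T18V, overlapped that of A549. These are message ratios by read counts, and reads primed at the tail need not scale with length.

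**Figure D3:**
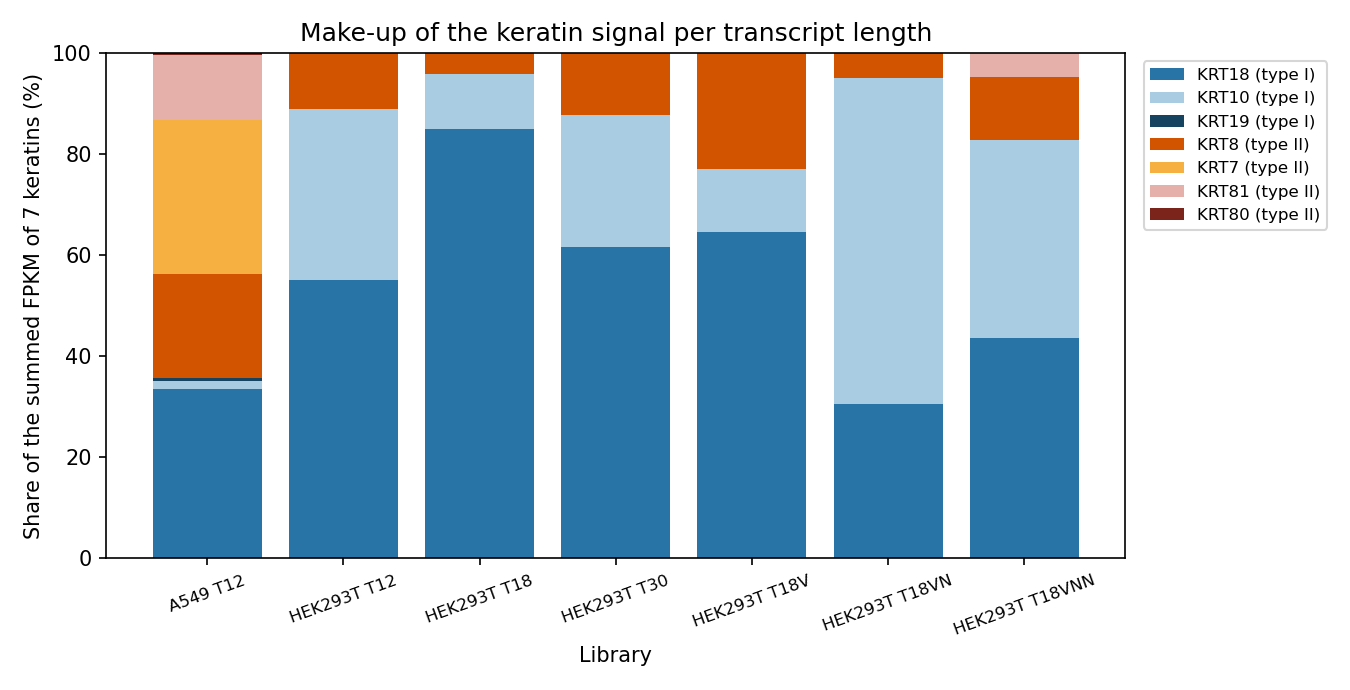
Share of the summed FPKM of the 7 keratins taken by each gene, in percent, as stacked bars starting at 0, 1 bar per library. In A549 the type I share is 35.6%, and in the HEK293T libraries KRT18 and KRT10 fill 77.1% to 95.8%.

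Across the HEK293T primers, only KRT8, KRT10 and KRT18 had enough reads to be tested. None of them was called different between the 3 anchored and the 3 unanchored libraries, in which primers stand in for replicates. edgeR's quasi-likelihood test with Benjamini-Hochberg adjustment called 1.35% of 10887 genes at an adjusted p under 0.05 (147 genes, 85 higher and 62 lower with an anchor). Of the 3 keratins tested, 0 were called, 0 had an unadjusted p under 0.05 (15.6% of all genes did), 0.569% of all genes were called lower with an anchor. DESeq2 called 0 of the keratins and 4.63% of 12555 genes. KRT7, KRT19 and KRT80 had no reads to test and KRT81 had 6, too few to pass the filter on low counts.

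The mean KRT18 level was 19.5 ± 6.63 CPM (SD, n = 3) with unanchored and 12.3 ± 3.95 CPM (SD, n = 3) with anchored primers. Its log2 fold change, anchored over unanchored, was -0.85 (SE 0.50, edgeR adjusted p = 0.449), with a 95% interval of -1.83 to 0.12. The classes overlapped, since T18V at 16.4 CPM lay above T12 at 14.1. By FPKM, over the library total, KRT18 stood at 1.66, 3.73 and 1.40 with T12, T18 and T30. With T18V, T18VN and T18VNN it stood at 4.19, 1.62 and 2.26. For KRT10 the unanchored mean was 9.46 ± 3.96 CPM (SD, n = 3) and the anchored mean 15.4 ± 10.7 CPM (SD, n = 3). Its change was 0.55 (SE 0.67, edgeR adjusted p = 0.761, 95% interval -0.76 to 1.86). By CPM the anchored class held both the highest KRT10 library, T18VN, and the lowest, T18V, while by FPKM the lowest was T18 (0.475). For KRT8 the unanchored mean was 3.31 ± 1.43 CPM (SD, n = 3) and the anchored mean 4.57 ± 2.84 CPM (SD, n = 3). Its change was 0.30 (SE 0.91, edgeR adjusted p = 0.918; 95% interval -1.48 to 2.09). Leaving out T18 turned the sign for KRT8 (-0.03), as did leaving out T18V (-0.27), and leaving out T18VN turned that for KRT10 (-0.06).

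Single primers differed from each other beyond counting error in several pairs, although with 1 library per primer the spread between libraries of the same primer is unknown. KRT18 was 1.91-fold higher with T18 than with T12 (95% exact interval 1.36 to 2.73) and 1.53-fold higher with T18 than with T30 (1.07 to 2.24). KRT10 was 2.51-fold lower with T18 than with T12 (1.4999 to 4.28), the opposite order. KRT8 was 4.32-fold higher with T18V than with T18 (1.90 to 10.7), where 1 anchor base was added. There the ratio for KRT10 was 0.925 with an interval spanning 1 (0.436 to 1.87), and KRT18 was 1.64-fold lower (1.17 to 2.35). All ratios of this paragraph are per reads on genes, which were 37.5% of the library total with T18V and 20.3% with T18. By FPKM, over the library total, KRT18 was instead higher with T18V than with T18 (4.19 and 3.73), and so was KRT10 (0.811 and 0.475). Among the anchored primers KRT10 was 5.65-fold higher with T18VN than with T18V (3.18 to 10.9), and KRT18 was 1.93-fold lower there (1.23 to 3.05).

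The highest over the lowest of the 6 HEK293T levels was 4.32 for KRT8, 5.65 for KRT10 and 3.17 for KRT18. Over the 10334 genes with reads in all 6 libraries this ratio had a median of 3.54 and quartiles of 2.38 and 6.05, so the 3 keratins lay within the middle range of all genes. The 3 did not follow each other over the 6 libraries. Pearson's r of log2(CPM + 1) was 0.02 for KRT8 with KRT18, -0.87 for KRT10 with KRT18 and -0.35 for KRT8 with KRT10, as a description over 6 libraries that share cells but differ in primer and depth. Among 7850 genes with a mean of at least 10 CPM, those most like KRT8 were SFXN2 (r = 0.985), EMX2 (0.985) and CDCA4 (0.980), 3 of 34 genes above 0.9. Those most like KRT18 were BBX (0.980), ZNF500 (0.964) and ZC3H12A (0.960), of 19 genes above 0.9. Those most like KRT10 were SCNM1 (0.974), HPRT1 (0.973) and the readthrough entry TNFAIP8L2-SCNM1 (0.970), which shares sequence with SCNM1, of 40 genes above 0.9. The highest of so many correlations over 6 libraries come near 1 by selection alone, so these names are descriptions only. The KRT8 profile also rests on only 8 to 21 reads per library.

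**Figure D4:**
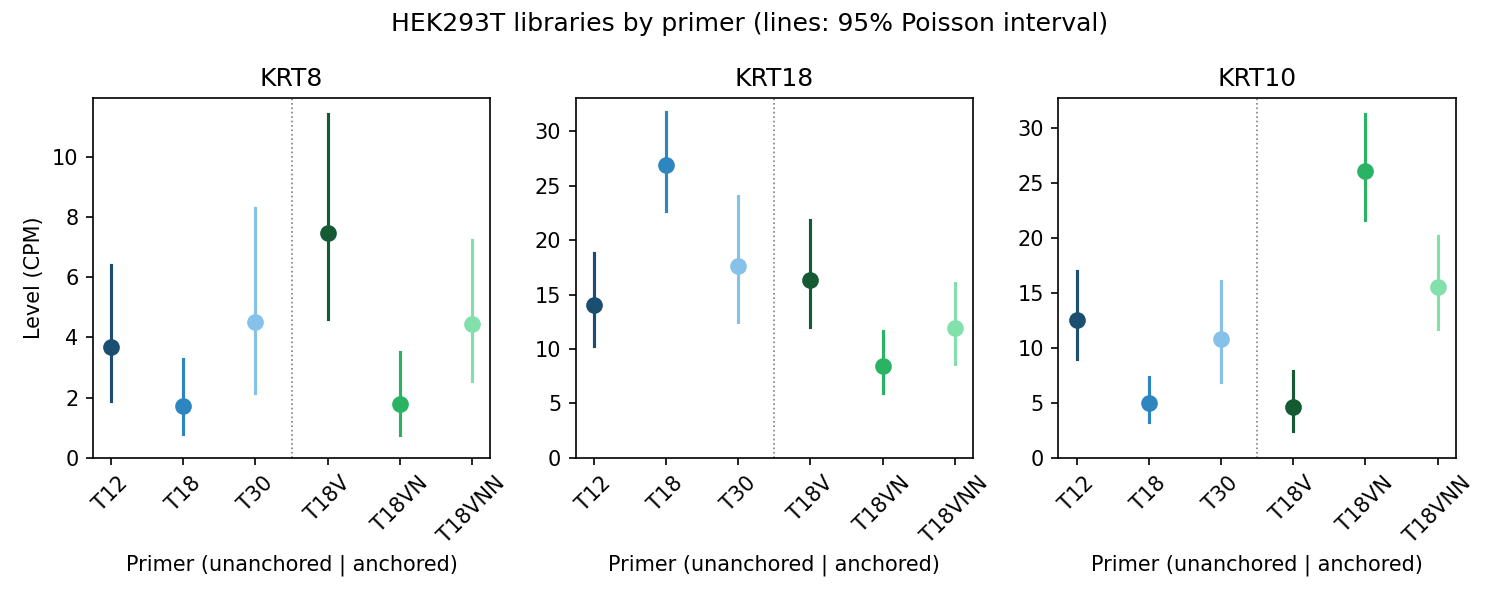
CPM of KRT8, KRT10 and KRT18 in the 6 HEK293T libraries by primer, with 95% exact Poisson lines. By CPM, over reads on genes, the highest library is T18V for KRT8 (7.47), T18VN for KRT10 (26.1) and T18 for KRT18 (26.9). By deposited FPKM, over the library total, T18V is the highest for KRT18 (4.19, beside 3.73 with T18) and for KRT8 (1.48).

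KRT8 and KRT18 have many processed pseudogenes, intronless copies of the message elsewhere in the genome, and reads from the gene and such copies can be counted at either place. Of all 50-base windows of the KRT8 transcript, 37.1% also occur in transcripts of other genes, and 22.6% of those in its last 500 bases. For KRT18 the shares were 35.1% and 36.4%. KRT81 had the highest share over its whole length, 44.6%, mostly with KRT86 and in part with the pseudogene KRT87P (9.04%), and 0 in its last 500 bases. The shares over the whole length were 0.997% for KRT7, 1.79% for KRT19, 0.416% for KRT80 and 0 for KRT10, so the levels of KRT8, KRT18 and KRT81 are the uncertain ones in this respect. The 7 keratins are less alike among themselves: KRT8 and KRT7 were 78.8% identical over 1073 aligned bases, KRT18 and KRT19 67.6% over 899, and KRT8 and its partner KRT18 61.5% over 895.

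One of the 7 keratin pseudogenes in the tables had reads, KRT8P41 at chr11:9115910-9117737 (hg19, plus strand). It held 32, 42 and 2 reads in the T12, T18 and T30 libraries, 46, 4307 and 884 in the T18V, T18VN and T18VNN libraries, and 8 in A549. Its levels were 9.80, 8.08 and 0.903 CPM in the unanchored and 16.4, 961 and 246 CPM in the anchored libraries, in the same order, and 5.34 CPM in A549. The 3 anchored libraries lay above the 3 unanchored ones, as for 16.8% of genes tested, and T18VN and T18VNN stood far above the rest. The log2 fold change was 5.80 (SE 1.19, edgeR adjusted p = 0.0411), and 0.781% of genes were called higher with an anchor. Leaving out any 1 of 5 of the 6 libraries put the adjusted p at 0.0712 to 0.130 (edgeR), the exception being T18V (0.0173). Without T18VN the change was 4.15 and the adjusted p 0.106.

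KRT8 did not follow its pseudogene, with 8 reads in T18VN and 16 in T18VNN. The pseudogene had 538-fold the reads of KRT8 in T18VN and 55.3-fold in T18VNN, but 0.2-fold in T30, while in A549 KRT8 had 192-fold the reads of the pseudogene. The transcripts were 89.5% identical over 1462 aligned bases, and 0.887% of the windows of the pseudogene occurred in KRT8. Adding the pseudogene's reads to KRT8 lowered the log2 ratio of A549 over HEK293T T12 from 7.78 to 6.16, still the same direction.

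**Figure D5:**
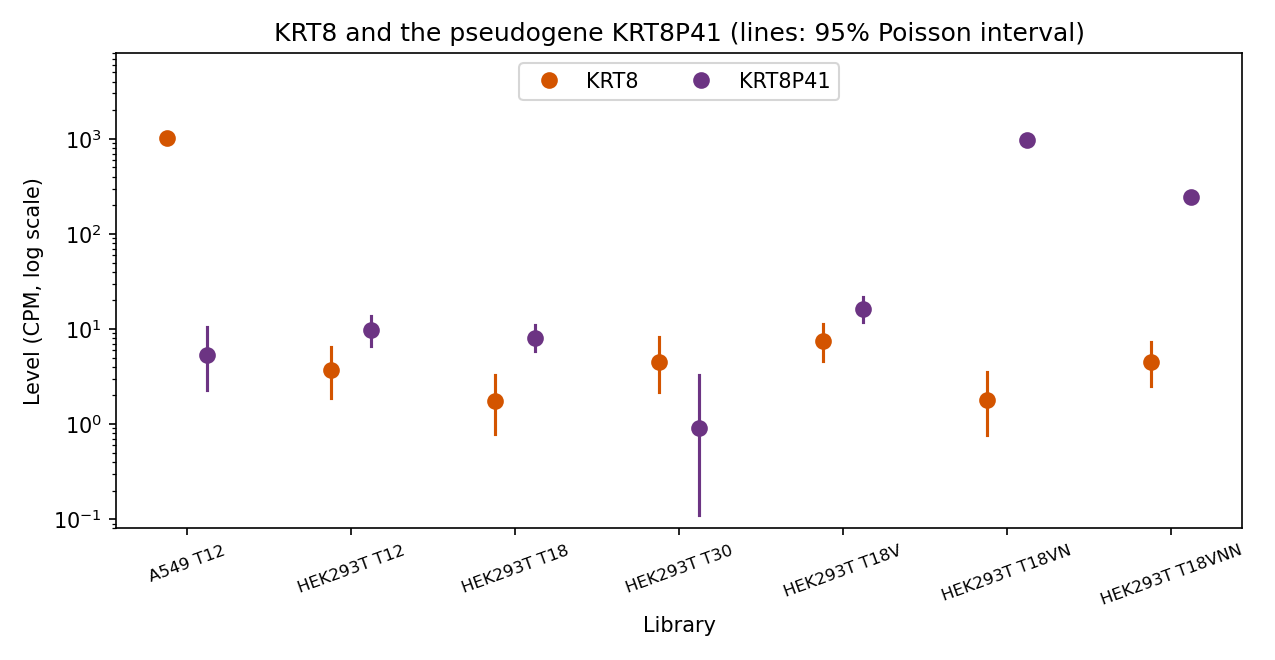
CPM (log axis) of KRT8 and of its pseudogene KRT8P41 in the 7 libraries, with 95% exact Poisson lines. The pseudogene reaches 961 CPM with T18VN and 246 CPM with T18VNN while KRT8 stays between 1.73 and 7.47 CPM in HEK293T, and in A549 KRT8 is at 1027 CPM and the pseudogene at 5.34.

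The rest of the keratin family had few or no reads in either line. Of 22 other type II keratins 3 had any read, all in A549 alone: KRT83 with 13, KRT4 with 9 and KRT86 with 4. Any read was found for 5 of 25 other type I keratins. KRT24 had 4 and KRT20 had 3 in A549, KRT38 had 6 in T18V, and KRT17 had 1 in T18VNN. KRT222, a keratin-like gene, had 48 reads in T18VN, 1 to 8 in the other HEK293T libraries and 2 in A549. No other keratin reached 20 reads in either T12 library.

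Of 9 other intermediate filament genes with at least 20 reads in the T12 libraries, 5 were at least 2-fold higher in A549 (31.0% of all genes) and 4 lower (29.2% of all genes), with a median log2 ratio of 1.51. VIM, the filament of mesenchymal cells and of many cultured lines, had 259.6 CPM in A549 and 41.6 to 119.6 CPM in HEK293T, 6.23-fold higher than in T12. LMNA, the A-type nuclear lamin, was 6.82-fold higher than in T12, at 653 CPM beside 22.5 to 95.8 CPM over the HEK293T libraries. The B-type lamin LMNB2 was 7.498-fold lower, at 44.7 CPM beside 109.9 to 458 CPM. LMNB1 was 7.19-fold lower against T12, but its 90.8 CPM in A549 was close to the 99.3 CPM of T30, the lowest of a HEK293T range that reached 1824 CPM. The neurofilament NEFM had 4502 reads in HEK293T T12 and 0 in A549, where it was at least 688-fold lower, and NEFL, with 336 reads in T12, was at least 51.4-fold lower. BFSP1, a lens filament gene, was 21.5-fold higher in A549 than in T12, at 46.1 CPM beside 2.14 to 10.7 CPM over the HEK293T libraries. The neuronal INA was 6.18-fold higher than in T12, but its 45.4 CPM was less than 2-fold above the 24.2 CPM of T18VNN, the highest HEK293T library.

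Of 13 measured genes that tie keratin filaments to the membrane or organise them, 9 were higher in A549, 3 lower and 1 within 2-fold, beside 31.0% higher and 29.2% lower over all genes, with a median log2 ratio of 1.52. ITGB4, the hemidesmosomal integrin subunit, was 122-fold higher, with 224 reads against 4, and PLEC, the linker plectin, was 23.6-fold higher. DST, the hemidesmosomal linker dystonin, had 80 reads in A549 against 3 in T12, and PPL, periplakin, had 43 and 2. Over the HEK293T libraries PLEC ran from 0.223 to 15.3 CPM, beside 130 CPM in A549. DST ran from 0.919 CPM in T12 to 14.6 CPM in T18V, beside 53.4 CPM in A549. The desmosomal cadherins DSC2 and DSC3 had 0 reads in A549 and 128 and 56 in T12, so they were at least 19.6-fold and 8.56-fold lower. Other desmosomal genes, named after their values were seen, were among the 9 higher in A549. These were JUP (137 against 7.66 CPM in T12), the cadherin DSG2 (41.4 against 7.96), DSP, desmoplakin (198 against 82.1), and PERP (168 against 58.2). TCHP, a keratin-binding protein, was 4.62-fold lower, and FAM83H, which acts on keratin organisation, stayed within the threshold on the log scale (0.98).

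Of epithelial regulators and adhesion genes, 6 of 11 measured were higher in A549, 4 lower and 1 within 2-fold, beside 31.0% higher and 29.2% lower over all genes (median log2 ratio 2.18). ELF3, an epithelial ETS factor, was at 816 reads in A549 against 0 in T12, at least 593-fold higher. CDH1, E-cadherin, was 48.5-fold higher and KLF5, an epithelial Krüppel-like factor, 23.2-fold, and TP63, with 25 reads against 0, at least 18.2-fold. T12 was the lowest HEK293T library for KLF5, whose 56.7 CPM in A549 stood beside 2.45 to 17.4 CPM over the HEK293T libraries. The factor TFAP2C was 9.82-fold lower. The repressors of epithelial genes went both ways: ZEB2 was 4.51-fold lower and SNAI2 had 2 reads in A549 and 37 in T12, while ZEB1 (32.7 against 6.43 CPM) and SNAI1 (55.4 against 5.82 CPM), named after their values were seen, were among the 6 higher genes. The splicing regulator ESRP2 was 2.79-fold lower than in T12, but its 8.01 CPM in A549 lay within the HEK293T range of 2.26 to 22.4 CPM. Of the epithelial markers EPCAM, CDH1, GRHL2 and ESRP1, only CDH1 had a read in A549 (245). Thus 3 of the 4 were not seen in the line that the labels call epithelial. GRHL2 and ESRP1 had no read in any library, so they do not tell the lines apart here.

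Markers of other cell types were examined beside the keratins. Of 12 lung markers 10 were at 0 in A549, NKX2-1 and the surfactant genes among them, and their summed level was 26.0 CPM, beside 14.7 to 35.8 CPM in HEK293T. Of 12 kidney markers 7 were at 0 in A549 and 5 in every HEK293T library, and their sum was 44.1 CPM in A549 and 144 to 261 CPM in HEK293T. Of the 5 measured, SIX2, EYA1 and PAX2 were at least 2-fold lower in A549 (29.2% of all genes were), and LHX1 and WT1 were within 2-fold. LHX1, at 16.7 CPM in A549, lay above its HEK293T range of 1.39 to 13.5 CPM. Of 10 blood, endothelial and fibroblast markers 8 were at 0 in A549, and the sum of 38.7 CPM, of which COL1A1 made 38.05 CPM, compared with 5.51 to 30.9 CPM. Their part in the keratin differences was not tested. Between the primer classes edgeR called 0 of the 10 other intermediate filaments tested, 0 of 13 linker genes and 0 of 8 epithelial regulators, at unadjusted p under 0.05 for 3, 1 and 1 of them. Among the marker lists it called EYA1 alone, lower with an anchor by a log2 change of -2.01 (adjusted p = 0.0494).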

How the data were processed

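The deposited tables list, per RefSeq transcript, read counts, FPM (a signal scaled to the library total) and FPKM, made by the authors. The submitters' processing notes name FastQC 0.11.8, cutadapt 2.10, Trimmomatic 0.39, HISAT2 2.2.1 and SAMtools with GRCh37/hg19; the counting tool is not given in the sources used here. FPKM values were used as deposited, and the deposited FPM signal gave the library totals (7491993 to 25578543 reads). Of 61177 entries 60133 (98.3%) matched a gene symbol, and the entry with most reads over the 7 libraries was kept per gene. CPM was computed over reads on genes (1498188 to 5200792). The floor of 3 reads is 0.577 to 1.35 CPM in HEK293T and 2.00 CPM in A549.

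The test of anchored against unanchored libraries was edgeR's quasi-likelihood test (version 4.0.16 in R 4.3.3) after filterByExpr and TMM, without covariates, at an adjusted p under 0.05, with DESeq2 1.42.0 as the alternative. It was also run on simulated counts, where recovery of changed genes was required only at a spread well below that of the data. A simulated run at about the spread of the data was made too. Its recovery is not given here, so the power at that spread is not shown. The spread is between primers, since the labels name no separate cultures for them. A549 and HEK293T were compared without a test. Intervals of reads, ratios and shares are 95% exact Poisson, exact binomial and Wilson intervals. Reads carry no molecular identifiers, so these and the floors hold for counting error alone. Intervals of edgeR's log2 fold changes are normal intervals from its SE and hold the spread between primers.

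The members and gene lists were chosen with earlier results of these data known. Named genes were the members, keratin pseudogenes with at least 20 reads, up to 4 genes with the highest and 4 with the lowest log2 ratio per list, list genes called between primer classes, and the 3 genes most correlated with KRT8, KRT18 and KRT10. List genes named after their values were seen are marked as such. Poly(T) length and gene body coverage files were not used. Some transcript sequence is not reported here.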

Additional observations from a re-analysis of the deposited data

Results flagged for a closer look

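Over the 6 HEK293T libraries, 6 values were examined for a library standing apart by Dixon's criterion, which chance meets in about 1 of 20 groups, and 3 met it. KRT81 had 1.67 CPM with T18VNN, from 6 reads, and 0 reads with the other 5 primers, so that it met the criterion whatever its count and says nothing by it. KRT8P41 had 961 CPM with T18VN, the next highest library being T18VNN at 246 CPM. The ratio of KRT18 to KRT8 per length was 20.1 with T18, where KRT8 had 9 reads, and 2.82 to 6.12 with the other 5 primers.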

How the results depend on the processing

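All 7 keratins stayed at least 2-fold higher in A549 under each of 8 alternatives (pseudocount, scaling, reference, entry, pseudogene reads, read minimum). The log2 ratio ran from 6.16 to 7.94 for KRT8, from 5.68 to 6.47 for KRT18 and from 2.1003 to 2.90 for KRT10. The keratins at 0 in HEK293T T12 moved more with the pseudocount and the scaling, KRT7 from 7.53 to 11.42, KRT81 from 6.46 to 10.34, KRT80 from 2.90 to 6.60 and KRT19 from 1.78 to 5.21. KRT19 came below KRT10 with a pseudocount of 5 CPM (2.203 against 2.49) and with library-total scaling. TMM scaling moved the median of all genes from 0.02 to -0.24 and library-total scaling to -0.26, and the higher share of 2-fold genes from 51.5% to 44.1% and 42.3%. Between primer classes 0 keratins were called in all 11 alternatives. Scaling to the library total was not among these. The count of all genes called was 581 with DESeq2, 556 with no filter, and 45 to 111 when 1 library was left out, beside 147; the cause was not tested beyond the fewer samples of the last. With 1 library left out the log2 fold change ran from -0.27 to 0.70 for KRT8, negative without T18 (-0.03) and T18V, and from -0.0636 to 0.95 for KRT10, negative without T18VN; the cause was not tested. No paired analysis was possible because the labels number only the T12 libraries, of which 1 per line had counts. Between primers KRT7, KRT19 and KRT80, with 0 reads in HEK293T, and KRT81, with 6, were not tested. KRT8 rests on 8 to 21 reads per HEK293T library.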
